A study of Rattus norvegicus with 24 samples.

Results

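Lysosomes are the acid compartments in which cells break down proteins, lipids, sugar chains and engulfed material. Their soluble hydrolases each cleave one kind of bond, their membrane proteins protect the limiting membrane and move material across it, and the vacuolar proton pump (V-ATPase) spends ATP to acidify the interior. In injured spinal cord, macrophages and microglia that take up myelin and cell debris are known for large lysosomes, while neurons and glia also depend on lysosomes for turnover, and inherited loss of many of these hydrolases causes storage disease of the nervous system. The genes described here are 37 members of this system, listed by name with earlier results of these data known and with no threshold on a measured value, of which 35 are represented on the array among 14218 genes in all. Npc1 and Galns are not analysed here, because no probe set carries either symbol alone. By role the 35 genes fall into 12 enzymes of sugar chains, 7 genes of lipid handling, 5 peptidases, phosphatases and progranulin, 6 membrane proteins and 5 proton pump genes.

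The data are 24 Affymetrix rat genome-wide expression arrays, each with RNA of a single animal, from 5 mm of thoracic cord around the injury of female Wistar rats whose age the sources used here do not state. Injured rats had a laminectomy and a 35 g aneurysm clip closed on the cord at thoracic level 7 for 1 min, and were sampled after 1, 3, 7, 14 or 56 days, 4 rats per day. The control group is 4 sham-operated rats, whose day of sampling the sources do not state, although the methods count 4 sham animals for each time point. No animal was followed over time, and nothing in the sources says that rats with the same replicate number belong together. The clip damages neurons, glia, vessels and meninges at once, so a level here is that of mixed tissue, in which fewer cells of a type and less RNA per cell cannot be told apart. The methods state separate pre-processing for every time point, so that the day and its pre-processing run cannot be told apart. Values are GCRMA expression values on the log2 scale, 1 probe set per gene, and a difference of 1 is a 2-fold change. Every test is limma's moderated test on all arrays, adjusted after Benjamini and Hochberg for the 20832 probe sets that carry 1 gene symbol, at a threshold of 0.05. "Rose", "fell", "higher" and "lower" in a count refer to this threshold, and errors are standard errors (SE) of the fit unless marked SD. Sham cord carried the markers of its labelled tissue, with means of 14.31 for the synaptic gene Snap25, 15.35 for the myelin gene Mbp and 14.74 for the astrocyte gene Gfap. Arrays of the same group correlated with one another at 0.973 to 0.996, and in every group but day 3 at least 1 rat stood at the edge of its group for most lysosomal genes, as given at the end.

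Most lysosomal transcripts were higher than in sham cord on the day after injury, most passed no test or were lower on day 3, and most were higher again from day 7 to day 56. On day 1, 24 of the 35 genes were higher and 1 lower than in sham, beside 28.9% and 20.4% of all genes. On day 3, only 3 were higher (Cd63, Grn and Scarb2) and 9 were lower, beside 23.7% and 16.7% of all genes. On day 7 the numbers were 28 and 1, where 23.5% of all genes were higher and 30.0% lower. Days 14 and 56 each held 23 higher and 2 lower genes, beside 15.8% and 16.3% of all genes on day 14 and 16.1% and 15.9% on day 56.

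The median change of the 35 genes was 0.82, −0.04, 1.08, 0.87 and 1.03 on days 1, 3, 7, 14 and 56, while the median over all 14218 genes lay between −0.05 and 0.03. With a change of 1 or more demanded in addition, 15 genes were higher on day 1, 1 on day 3, 21 on day 7, 14 on day 14 and 18 on day 56. The same rule was met by 15.7%, 10.6%, 10.4%, 7.37% and 7.63% of all genes on these days. The 5 comparisons use the same sham arrays and are not independent of one another. Of the 35 genes, 18 were higher on 4 of the 5 days and 2, Cd63 and Grn, on all 5. Only Atp6v1a was lower on all 5. Idua, Aga, Npc2, Tpp1, Lamp1 and Lamp2 were lower on day 3 and higher on other days, and Smpd1, Mcoln1 and Atp6v1b2 passed the threshold on no day.

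**Figure D1:**
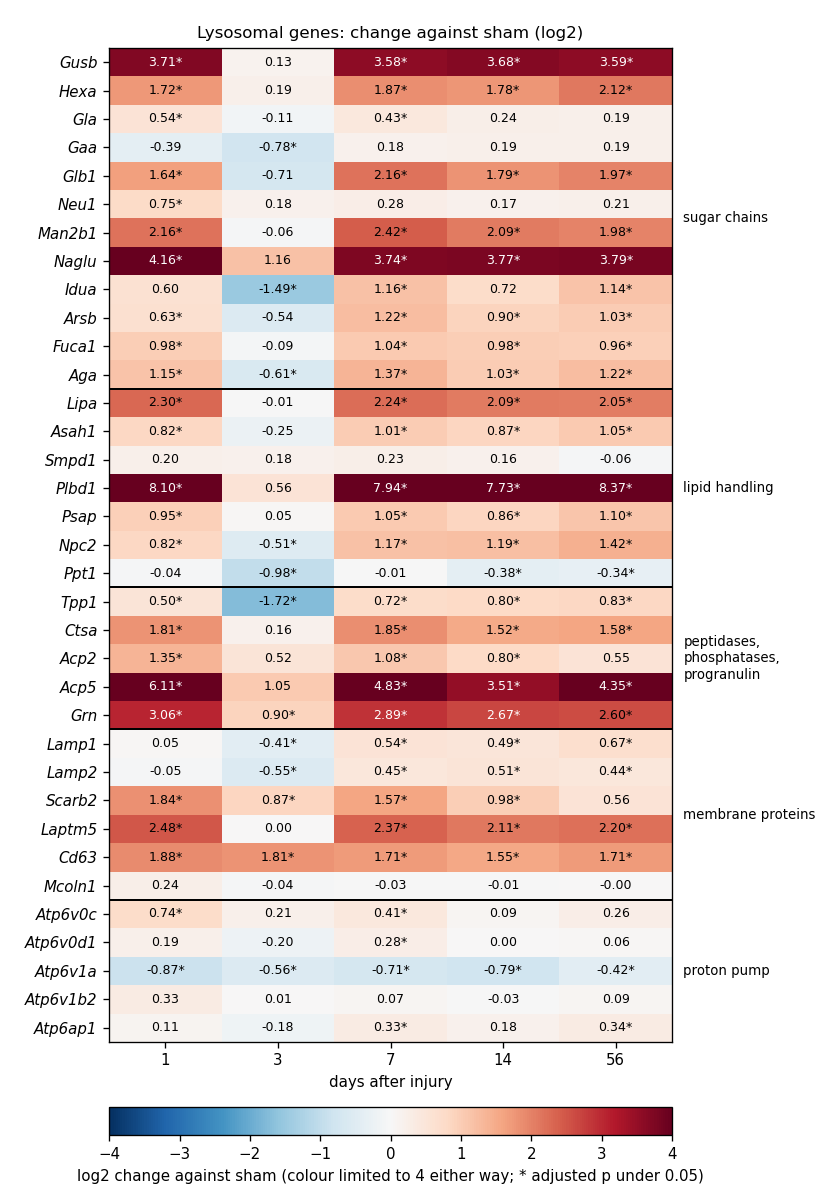
Log2 change against sham for the 35 lysosomal genes (rows, in role groups) on the 5 days (columns), with an asterisk where the adjusted p is under 0.05. The day 3 column is pale or blue in most rows between the red columns of days 1 and 7, with Cd63 as an exception at 1.81, and Atp6v1a is blue throughout.

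Consecutive days were also compared directly. These differences use no sham values, although the sham arrays enter the estimate of the spread. The steps into and out of day 3 share the day 3 arrays. From day 1 to day 3, 28 genes fell and 1 rose, beside 18.3% and 17.1% of all genes, and 18 of the 28 fell by at least 1, a size met by 8.02% of all genes. From day 3 to day 7, 26 rose and none fell (0 genes also at an unadjusted p under 0.05, and 0 to 1 under the alternative fits), where 12.8% of all genes rose and 17.1% fell, and 19 rose by at least 1, as did 6.15% of all genes. The median difference of the 35 genes was −1.07 in the first step and 1.13 in the second. Day 3 held the lowest mean of the 5 injured groups for 28 of the 35 genes, and for 25.5% of all genes. It held the highest mean for none of the 35.

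Few lysosomal genes passed the test after day 7. From day 7 to day 14 none rose (0 at an unadjusted p under 0.05 and in each alternative fit) and 2 fell, Ppt1 (−0.37, adjusted p = 0.0121) and Atp6v0d1 (−0.27, adjusted p = 0.0441), beside 21.8% and 6.18% of all genes. At an unadjusted p under 0.05, 5 genes were lower on day 14 than on day 7, the other 3 being Acp5 (−1.32, 95% interval −2.54 to −0.09), Scarb2 (−0.60) and Atp6v0c. Both falls depend on the fit: with each array left out in turn the number that fell ran from 1 to 6 (6 without day 7 replicate 3, 4 without day 14 replicate 3), and after quantile normalization it was 0. From day 14 to day 56 no gene passed in either direction, in the fit or in any alternative, beside 0.190% of all genes that rose and 0.148% that fell. At an unadjusted p under 0.05, Atp6v1a was higher (0.37) and Smpd1 lower (−0.22) on day 56 than on day 14.

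**Figure D2:**
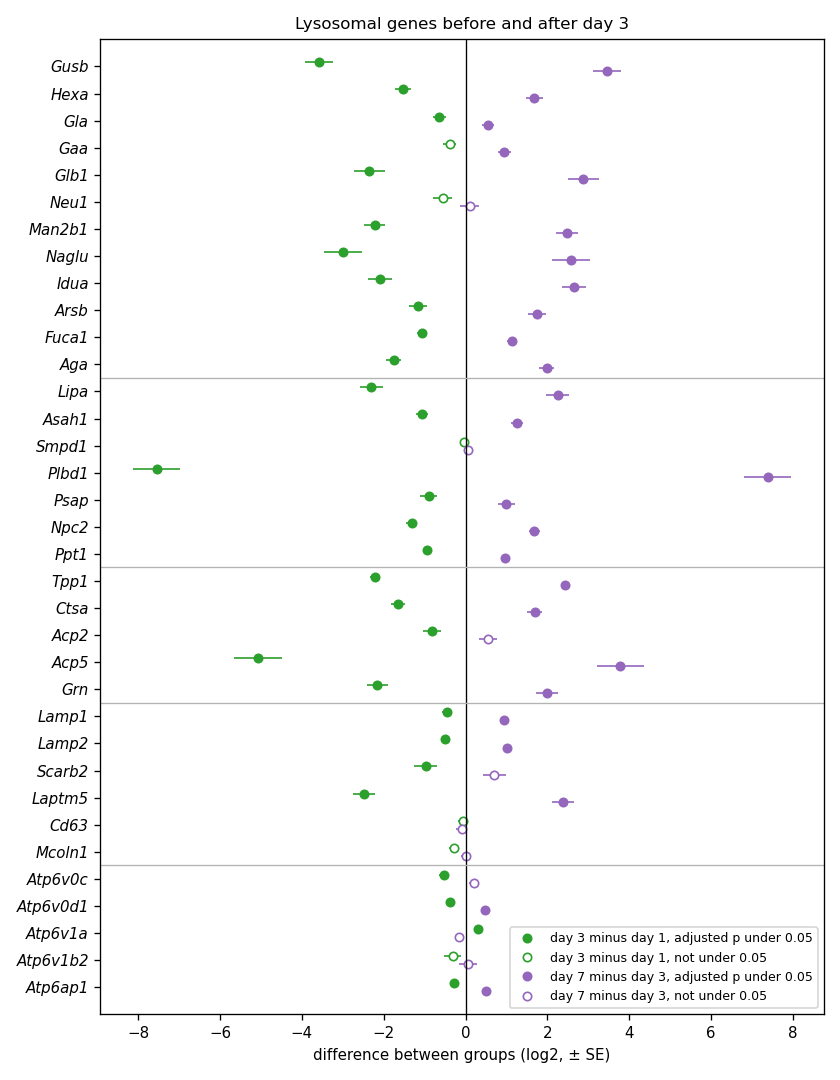
Difference between consecutive groups on the log2 scale (± SE) for each gene, day 3 minus day 1 in green and day 7 minus day 3 in purple, with filled points where the adjusted p is under 0.05. Green points lie to the left of 0 and purple points to the right for most genes, widest apart for Plbd1 (−7.55 and 7.38), while Cd63 has both points near 0 (−0.06 and −0.10).

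Many lysosomal genes are known to carry a short DNA element, the core of the CLEAR motif, that is bound by the transcription factor TFEB and its relatives TFE3, MITF and TFEC. Of the 35 genes, 25 were lower on day 3 than on day 1 and higher on day 7 than on day 3, and the others were not. Promoter windows of RefSeq (build GRCr8, 250 bases before to 50 bases after each transcript start, in the direction of the gene) were searched for the letters CACGTG and for the longer TCACGTGA. Both read the same on either strand, and every TCACGTGA contains a CACGTG. Windows were found for 29 of the 35 genes, and not for Hexa, Psap, Ppt1, Asah1, Arsb and Atp6v1b2. CACGTG stood in 8 of the 29 genes (27.6%) and in 7.08% of all 27457 genes with a window, and TCACGTGA in 3 of the 29 (10.3%, Lamp1, Mcoln1 and Atp6v0d1) and in 0.896% of all. Stretches are shown for genes that hold the letters before the start and that differ in course: Lamp1, with 5 copies, Cd63, high on all days, and Mcoln1 and Atp6v0d1, which moved little. Capitals mark CACGTG. Lamp1 lies at chr16:83075076-83075266 on the minus strand, Cd63 at chr7:1921934-1921979 on the plus strand, Mcoln1 at chr12:6358216-6358257 on the plus strand and Atp6v0d1 at chr19:50357275-50357320 on the minus strand.
Lamp1: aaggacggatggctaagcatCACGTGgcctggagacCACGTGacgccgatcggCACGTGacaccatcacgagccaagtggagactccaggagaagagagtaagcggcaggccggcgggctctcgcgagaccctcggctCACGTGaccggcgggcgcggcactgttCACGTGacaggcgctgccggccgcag
Cd63: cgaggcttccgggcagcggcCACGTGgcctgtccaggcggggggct
Mcoln1: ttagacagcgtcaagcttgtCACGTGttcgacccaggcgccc
Atp6v0d1: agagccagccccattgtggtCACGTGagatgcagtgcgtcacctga
In Lamp1 the copies begin 183, 167, 150, 65 and 38 bases before the start. Cd63 holds its copy 190, Mcoln1 22 and Atp6v0d1 52 bases before the start. Distances are from the start used for the window, which in Lamp1, Cd63 and Mcoln1 does not coincide with the annotated beginning of the gene. A second copy in Mcoln1, the one within TCACGTGA, begins 4 bases past the start and is not shown. The other genes with the letters are Gaa, Glb1, Idua and Plbd1, in Idua and Plbd1 at or past the start. The day 1 differences of these 8 genes ran from 8.10 (Plbd1) to −0.39 (Gaa, not called), with 3 of 8 higher on day 1 and 6 of 8 on day 7. Of the 21 genes whose window lacks the letters, 17 were higher on day 1 and 18 on day 7. Among all genes 28.9% were higher on day 1 and 23.5% on day 7, and 3 of 8 lies near the day 1 share. Whether genes with and without the letters differ was not tested. A match describes the letters in this window and no binding was measured.

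Among the enzymes of sugar chains, 10 of 12 were higher on day 1, none on day 3, 10 on day 7, 8 on day 14 and 9 on day 56, and 3 were lower on day 3 (Gaa, Idua and Aga). The shares of all genes that were higher on these days were 28.9%, 23.7%, 23.5%, 15.8% and 16.1%, and 16.7% were lower on day 3. Of these enzymes, Naglu, Gusb and Man2b1 moved most. Values in each rat are given in the order of replicates 1 to 4.

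Gusb, beta-glucuronidase, which removes glucuronic acid from glycosaminoglycans, was measured at 6.29, 5.88, 6.66 and 6.49 in sham rats, 10.19, 9.92, 9.82 and 10.22 on day 1, and 6.54, 5.77, 6.45 and 7.07 on day 3. It read 10.27, 10.79, 9.07 and 9.51 on day 7, 9.87, 9.44, 10.94 and 9.78 on day 14, and 9.61, 9.95, 9.91 and 10.21 on day 56. All 16 rats of days 1, 7, 14 and 56 lay above every sham rat, whereas the day 3 rats spread around the sham values. The changes were 3.71, 0.13, 3.58, 3.68 and 3.59 on days 1, 3, 7, 14 and 56 (SE 0.34), with a largest adjusted p of 4.43e-07 on the 4 high days and a 95% interval for day 3 of −0.59 to 0.85. Naglu, which cleaves N-acetylglucosamine from heparan sulfate, read 5.39, 6.95, 5.22 and 6.51 in sham rats, 10.75, 9.82, 9.77 and 10.36 on day 1, and 6.01, 7.51, 7.54 and 7.64 on day 3, and 10.15, 10.81, 8.52 and 9.55 on day 7, 9.53, 9.41, 10.52 and 9.68 on day 14, and 9.85, 9.55, 9.61 and 10.21 on day 56. Here 3 of the 4 day 3 rats lay above all sham rats and the remaining one among them. Naglu changed by 4.16, 3.74, 3.77 and 3.79 on days 1, 7, 14 and 56 (SE 0.47, with no adjusted p above 7.11e-06), and on day 3 its difference of 1.16 missed the threshold (adjusted p = 0.0603), but passed it without day 3 replicate 1 (1.55, adjusted p = 0.0135) and without sham replicate 2 (1.47, adjusted p = 0.025). Man2b1, lysosomal alpha-mannosidase, which trims mannose from glycoproteins, was at 7.97, 8.49, 8.03 and 9.06 in sham rats, 10.84, 10.38, 10.16 and 10.79 on day 1, and 7.97, 8.71, 8.55 and 8.07 on day 3. Its later values were 11, 11.39, 10.35 and 10.47 on day 7, 10.15, 10.52, 10.90 and 10.31 on day 14, and 10.43, 10.17, 10.36 and 10.50 on day 56. Day 3 overlapped sham and lay below all other injured rats. The changes were 2.16, −0.06, 2.42, 2.09 and 1.98 on days 1, 3, 7, 14 and 56 (SE 0.26), and the fall from day 1 to day 3 was −2.22 (adjusted p = 3.77e-06). A second probe set of Man2b1, with a mean of 3.34 over all arrays, passed on no day against sham.

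Idua and Aga fell below sham on day 3. Idua, alpha-L-iduronidase, which cleaves iduronic acid from dermatan and heparan sulfate, read 6.54, 7.14, 7.66 and 7.81 in sham rats, 7.77, 7.90, 7.75 and 8.14 on day 1, and 6.12, 5.15, 5.92 and 6.02 on day 3. Afterwards it stood at 8.75, 8.84, 8.02 and 8.18 on day 7, 7.80, 7.91, 8.77 and 7.56 on day 14, and 8.63, 7.90, 8.53 and 8.65 on day 56. Every day 3 rat was below every sham rat, with a change of −1.49 (SE 0.30, adjusted p = 0.00053), and Idua was 1.16 and 1.14 higher than sham on days 7 and 56 (adjusted p = 0.00441 and 0.00618). Its day 1 and day 14 differences, 0.60 and 0.72, missed the threshold. Aga, aspartylglucosaminidase, which frees asparagine from its sugar, read 8.63, 9.28, 9.38 and 9.50 in sham rats, 10.23, 10.31, 10.23 and 10.63 on day 1, and 8.72, 8.38, 8.89 and 8.36 on day 3, then 10.69, 10.92, 10.16 and 10.51 on day 7, 10.20, 10.02, 10.59 and 10.10 on day 14, and 10.32, 10.43, 10.37 and 10.55 on day 56. The day 3 rats overlapped the lowest sham rat. Aga changed by 1.15, 1.37, 1.03 and 1.22 on days 1, 7, 14 and 56 and by −0.61 on day 3 (SE 0.18, adjusted p = 0.0134), a call that is lost when only these 2 groups are fitted (adjusted p = 0.0682).

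Of the remaining sugar-chain enzymes, Glb1 (beta-galactosidase), Hexa (the alpha subunit of beta-hexosaminidase), Arsb (arylsulfatase B) and Fuca1 (alpha-fucosidase) were higher on the 4 days other than day 3, by 0.63 to 2.16, and none of the 4 passed on day 3. Gla (alpha-galactosidase) rose on days 1 and 7, by 0.54 and 0.43, and Neu1 (sialidase) rose on day 1 alone, by 0.75 (adjusted p = 0.012). With only the compared groups fitted, these calls of Gla (adjusted p = 0.0552 and 0.0503) and Neu1 (0.0777) and the day 1 call of Arsb (0.0627) are lost. The day 7 call of Gla is also lost after quantile normalization (0.34, adjusted p = 0.0663) and without sham replicate 1 (0.36, adjusted p = 0.101), sham replicate 3 (0.42, 0.0614), day 7 replicate 1 (0.43, 0.0617) or day 7 replicate 2 (0.33, 0.0954). The day 1 call of Neu1 is lost without sham replicate 1 (0.56, adjusted p = 0.0587) or day 1 replicate 1 (0.52, 0.0619), and that of Arsb without sham replicate 1 (0.47, adjusted p = 0.0968), day 1 replicate 2 (0.52, 0.0763) or day 1 replicate 4 (0.57, 0.0636). Second probe sets were also higher on day 1: Gla by 0.65 (adjusted p = 6.96e-05), Neu1 by 0.54 (0.000835) and Arsb by 1.43 (0.000691). That of Gla was higher on day 7 too (0.34, adjusted p = 0.0191). Glb1, Neu1 and the protective protein Ctsa are known to form 1 complex, and their calls were not alike: Glb1 and Ctsa were higher on 4 days, while the later differences of Neu1 were 0.28, 0.17 and 0.21 (adjusted p = 0.314, 0.598 and 0.595). Whether Neu1 differs from its partners was not tested. Gaa, the acid glucosidase that degrades glycogen, was lower on day 3 (−0.78, adjusted p = 0.000692) and higher on no day. A second probe set of Gaa was also lower on day 3 (−1.28, adjusted p = 0.000596), and on day 1 (−0.66, adjusted p = 0.0447). The day 1 difference of the probe set used, −0.39, missed the threshold (adjusted p = 0.0567). It passed in several alternatives, among them quantile normalization (−0.42, adjusted p = 0.0379) and the mean of both probe sets (−0.53, adjusted p = 0.0247).

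Of the lipid-handling genes, 5 of 7 were higher on days 1, 7, 14 and 56 and none on day 3, when Npc2 and Ppt1 were lower. The shares over all genes are those given for the sugar-chain enzymes. Plbd1, a phospholipase B-like protein of lysosomes and granules in myeloid cells, showed the widest range of all 35. It read 1.87, 1.86, 1.89 and 2.38 in sham rats, 10.03, 10.04, 9.75 and 10.59 on day 1, and 2.41, 2.21, 3.75 and 1.84 on day 3. It then stood at 10.78, 11.46, 8.09 and 9.41 on day 7, 9.90, 8.49, 10.99 and 9.55 on day 14, and 10.22, 10.54, 10.35 and 10.36 on day 56. Apart from day 3 replicate 3, sham and day 3 rats lay below the level of control probe sets without a rat target (array means of 2.62 to 2.91), and all other rats were at 8.09 or above. The changes of 8.10, 7.94, 7.73 and 8.37 on days 1, 7, 14 and 56 (SE 0.57, with no adjusted p above 2.39e-08) therefore have no exact size. A second probe set of Plbd1 stayed near the control level, with a mean of 2.37 over all arrays.

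Lipa, the acid lipase that hydrolyses cholesteryl esters and triglycerides, was measured at 8.38, 8.42, 8.43 and 8.49 in sham rats, 10.52, 10.69, 10.60 and 11.11 on day 1, and 8.39, 8.43, 8.42 and 8.43 on day 3. It stood at 10.85, 11.57, 9.85 and 10.40 on day 7, 10.47, 10.12, 11.37 and 10.12 on day 14, and 10.31, 10.64, 10.22 and 10.76 on day 56. Sham and day 3 values were nearly the same and tight (8.43 ± 0.05 and 8.42 ± 0.02, SD, n = 4 each), below all other rats. Lipa changed by 2.30, 2.24, 2.09 and 2.05 on days 1, 7, 14 and 56 (SE 0.28, with no adjusted p above 1.97e-05), and the day 3 interval was −0.60 to 0.58. Npc2, the soluble carrier of cholesterol, read 12.43, 13.18, 12.96 and 13.23 in sham rats, 13.92, 13.69, 13.62 and 13.84 on day 1, and 12.41, 12.55, 12.49 and 12.32 on day 3, and then 14.21, 14.30, 13.74 and 14.21 on day 7, 14.24, 14.08, 14.23 and 13.99 on day 14, and 14.37, 14.42, 14.40 and 14.28 on day 56. Days 1, 7, 14 and 56 were above all sham rats, by 0.82, 1.17, 1.19 and 1.42 (SE 0.14), with the highest mean on day 56. Its day 3 fall of −0.51 (adjusted p = 0.00731) is lost when only these 2 groups are fitted (adjusted p = 0.0634).

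Acid ceramidase (Asah1) and prosaposin (Psap), the precursor of the saposins that present sphingolipids to hydrolases, rose by 0.82 to 1.10 on days 1, 7, 14 and 56. Ppt1, which removes palmitate from proteins, was higher on no day. It read 11.84, 11.91, 12.04 and 11.52 in sham rats, 11.58, 11.79, 11.75 and 12.04 on day 1, and 10.77, 10.78, 10.96 and 10.88 on day 3, then 11.79, 11.98, 11.74 and 11.76 on day 7, 11.43, 11.37, 11.50 and 11.48 on day 14, and 11.40, 11.47, 11.47 and 11.61 on day 56. The day 3 rats lay below all others. Its changes were −0.04, −0.98, −0.01, −0.38 and −0.34 on days 1, 3, 7, 14 and 56 (SE 0.10), and those of days 3, 14 and 56 passed the test (adjusted p = 1.79e-07, 0.00472 and 0.0104), that of day 56 not with only these 2 groups fitted (adjusted p = 0.055). Smpd1, acid sphingomyelinase, read 10.50, 10.92, 10.81 and 10.88 in sham rats, 11.27, 10.97, 10.75 and 10.94 on day 1, and 10.95, 10.95, 11.15 and 10.77 on day 3, and 11, 11.07, 10.89 and 11.09 on day 7, 10.84, 11.01, 10.98 and 10.92 on day 14, and 10.57, 10.83, 10.69 and 10.78 on day 56. Its groups overlapped on each day, with changes between −0.06 and 0.23 (SE 0.10, smallest adjusted p = 0.0644, on day 7), and the 95% interval for day 7 was 0.02 to 0.45.

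Among the peptidases, phosphatases and progranulin, 5 of 5 were higher on days 1, 7 and 14 and 4 on day 56, and on day 3 Grn was higher and Tpp1 lower. These day 3 counts of 1 of 5 each way lie near the shares over all genes, 23.7% higher and 16.7% lower. Acp5, the tartrate-resistant phosphatase of osteoclasts and activated macrophages, was at 3.27, 3.64, 3.25 and 3.67 in sham rats, 10.43, 9.04, 9.17 and 9.66 on day 1, and 3.24, 5.55, 4.78 and 4.46 on day 3, then at 8.87, 9.60, 7.10 and 7.59 on day 7, 6.69, 5.64, 8.27 and 7.29 on day 14, and 8.69, 7.55, 7.89 and 7.09 on day 56. The mean was highest on day 1, and of the 4 high days lowest on day 14, with an SD of 0.63 to 1.15 within these groups. Acp5 changed by 6.11, 4.83, 3.51 and 4.35 on days 1, 7, 14 and 56 (SE 0.58, with no adjusted p above 0.000128), and the day 3 difference of 1.05 missed the threshold (adjusted p = 0.143). Its sham mean of 3.46 lies close to the brightest of the control probe sets (3.22), so these changes have no exact size either. Grn, progranulin, a secreted growth factor that is also processed in lysosomes, read 9.32, 10.58, 10.11 and 10.75 in sham rats, 13.52, 13.02, 13.06 and 13.38 on day 1, and 10.89, 11.08, 11.34 and 11.05 on day 3. It went on at 13.29, 13.60, 12.35 and 13.07 on day 7, 12.98, 12.68, 13.21 and 12.55 on day 14, and 12.66, 12.71, 12.85 and 12.94 on day 56. All 20 injured rats lay above all sham rats. Grn changed by 3.06, 2.89, 2.67 and 2.6 on the 4 high days and by 0.90 on day 3 (SE 0.26, adjusted p = 0.0109). Without sham replicate 1, the lowest rat, the day 3 difference was 0.61 (adjusted p = 0.0501).

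Tpp1, tripeptidyl peptidase, had the lowest adjusted p among the 9 falls on day 3. It read 11.56, 12, 11.63 and 12.12 in sham rats, 12.18, 12.36, 12.38 and 12.39 on day 1, and 9.98, 10.11, 10.30 and 10.05 on day 3. Afterwards it was at 12.59, 12.80, 12.35 and 12.48 on day 7, 12.63, 12.59, 12.70 and 12.58 on day 14, and 12.58, 12.59, 12.70 and 12.78 on day 56. The day 3 rats lay between 9.98 and 10.30 and those of other groups at 11.56 or above. On day 3 Tpp1 was 1.72 lower on the log2 scale (change −1.72, SE 0.11, adjusted p = 8.97e-10), whereas it rose by 0.50, 0.72, 0.80 and 0.83 on days 1, 7, 14 and 56. The steps into and out of day 3 were −2.22 (adjusted p = 1.01e-10) and 2.44 (adjusted p = 1.45e-11). Ctsa, the protective protein of the Glb1 complex and a carboxypeptidase, read 10.72, 11.10, 11.12 and 11.07 in sham rats, 13.05, 12.71, 12.46 and 13.02 on day 1, and 11.18, 11.13, 11.27 and 11.06 on day 3, followed by 13.05, 13.22, 12.40 and 12.75 on day 7, 12.48, 12.29, 13.06 and 12.28 on day 14, and 12.46, 12.70, 12.63 and 12.53 on day 56. Day 3 rats overlapped the sham rats and lay below all others. Ctsa changed by 1.81, 1.85, 1.52 and 1.58 on days 1, 7, 14 and 56 (SE 0.18, with no adjusted p above 3.41e-06). Acp2, lysosomal acid phosphatase, was higher on days 1, 7 and 14 by 1.35, 1.08 and 0.80, and its day 3 and day 56 differences, 0.52 and 0.55, missed the threshold (adjusted p = 0.0743 and 0.0738).

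**Figure D3:**
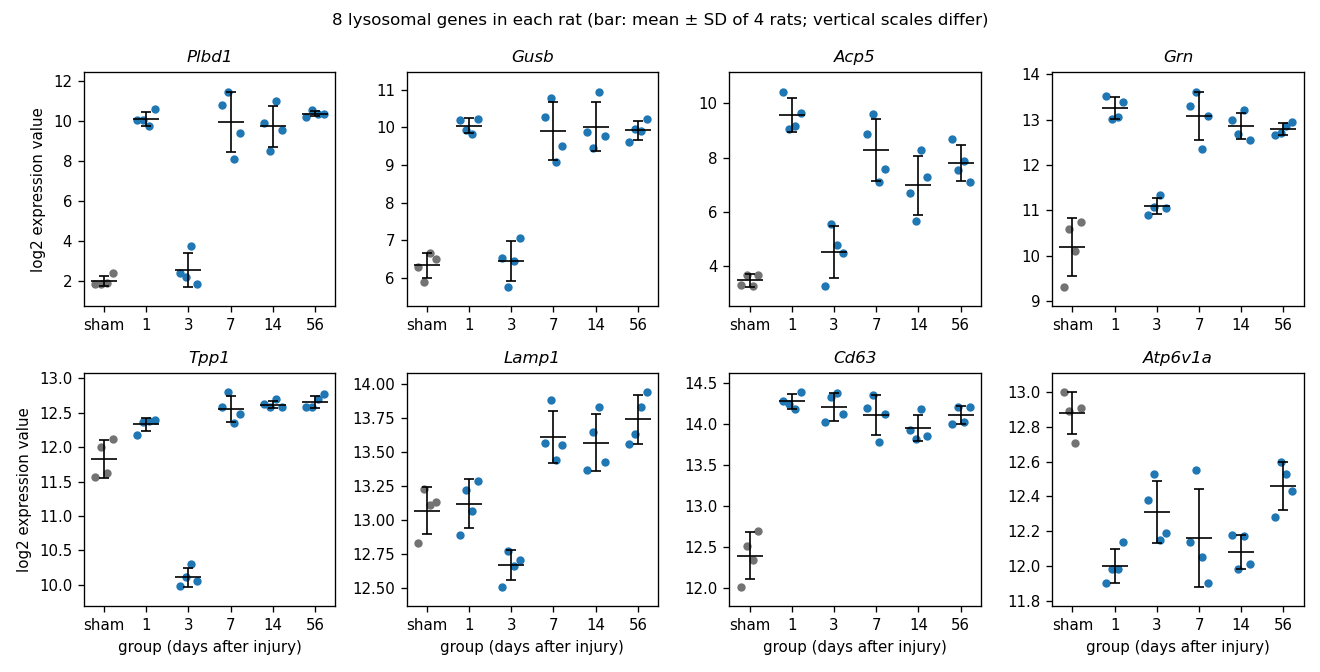
Log2 expression values of 8 lysosomal genes in each rat, sham in grey and injured groups in blue, with the mean ± SD of 4 rats. Day 3 sits with sham in Plbd1 and Gusb, between sham and the other days in Grn, and below sham in Tpp1 (9.98 to 10.30) and Lamp1 (12.51 to 12.77). Cd63 is high in all injured groups and Atp6v1a low in all.

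Membrane proteins split into several courses, with 3, 2, 5, 5 and 4 of 6 higher on days 1, 3, 7, 14 and 56 and 2 lower on day 3. The shares of all genes on day 3 were 23.7% higher and 16.7% lower. Cd63, a tetraspanin of late endosomes, lysosomes and secreted vesicles, was at 12.02, 12.52, 12.35 and 12.70 in sham rats, 14.28, 14.24, 14.19 and 14.39 on day 1, and 14.03, 14.33, 14.38 and 14.12 on day 3. Later values were 14.20, 14.35, 13.78 and 14.12 on day 7, 13.93, 13.82, 14.18 and 13.86 on day 14, and 14, 14.21, 14.03 and 14.21 on day 56. All injured rats were above all sham rats, day 3 included. The changes were 1.88, 1.81, 1.71, 1.55 and 1.71 on days 1, 3, 7, 14 and 56 (SE 0.13), with no adjusted p above 1.32e-07, and the interval of the step from day 1 to day 3 was −0.34 to 0.21. Scarb2, the receptor LIMP-2 that carries glucocerebrosidase to lysosomes, read 8.04, 8.75, 8.50 and 8.16 in sham rats, 9.98, 10.27, 9.94 and 10.61 on day 1, and 9.08, 9.62, 9.36 and 8.87 on day 3, then 9.99, 10.53, 9.04 and 10.18 on day 7, 9.32, 9.23, 9.70 and 9.10 on day 14, and 8.57, 9.11, 8.49 and 9.53 on day 56. Its mean was highest on day 1 and lower at each later time than on day 7, and the day 56 rats overlapped sham. Scarb2 changed by 1.84, 0.87, 1.57 and 0.98 on days 1, 3, 7 and 14 (SE 0.28) and by 0.56 on day 56 (adjusted p = 0.16). The day 3 call (adjusted p = 0.0205) is lost without sham replicate 1 (0.77, adjusted p = 0.0658), without day 3 replicate 2 (0.74, adjusted p = 0.0727) and without day 3 replicate 3 (0.83, adjusted p = 0.0522), and the day 14 call without day 14 replicate 3 (0.86, adjusted p = 0.0507).

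Laptm5, a lysosomal membrane protein of white blood cells, read 9.16, 10.40, 9.84 and 10.51 in sham rats, 12.49, 12.41, 12.27 and 12.66 on day 1, and 9.68, 9.98, 10.25 and 10.01 on day 3. It stood at 12.62, 12.78, 11.52 and 12.46 on day 7, 12.21, 11.75, 12.49 and 11.90 on day 14, and 12.19, 12.25, 12.03 and 12.25 on day 56. Day 3 rats lay within the sham range, and Laptm5 changed by 2.48, 2.37, 2.11 and 2.20 on days 1, 7, 14 and 56 (SE 0.27, with no adjusted p above 8.36e-06). Mcoln1, the cation channel TRPML1, was at 7.52, 7.5, 7.51 and 7.43 in sham rats, 7.92, 7.47, 7.53 and 7.98 on day 1, and 7.62, 7.45, 7.24 and 7.47 on day 3, and at 7.46, 7.45, 7.47 and 7.46 on day 7, 7.5, 7.39, 7.53 and 7.51 on day 14, and 7.49, 7.15, 7.48 and 7.83 on day 56. Its means differed from sham by 0.24 on day 1 (adjusted p = 0.118) and by at most 0.04 on the other days. The day 7 interval was −0.28 to 0.21.

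Lamp1 and Lamp2 are the abundant, heavily glycosylated proteins of the lysosomal membrane. Lamp1 read 12.83, 13.23, 13.11 and 13.13 in sham rats, 12.89, 13.22, 13.07 and 13.29 on day 1, and 12.51, 12.77, 12.66 and 12.71 on day 3. Later it was at 13.57, 13.88, 13.44 and 13.55 on day 7, 13.37, 13.65, 13.83 and 13.43 on day 14, and 13.56, 13.63, 13.83 and 13.94 on day 56. Day 1 rats overlapped sham, day 3 rats were below all sham rats (−0.41, SE 0.12, adjusted p = 0.0116), and Lamp1 was higher on days 7, 14 and 56, by 0.54, 0.49 and 0.67. Another Lamp1 probe set, with a mean of 3.96 over all arrays, passed against sham on day 7 alone (0.59, adjusted p = 0.0122). On day 3 it differed by −0.24 (adjusted p = 0.267). The dimmest Lamp1 probe set, with a mean of 2.21, passed on no day against sham. Lamp2 read 13.83, 14.07, 13.65 and 14.24 in sham rats, 13.73, 14.02, 14.05 and 13.80 on day 1, and 13.20, 13.51, 13.48 and 13.38 on day 3, followed by 14.48, 14.34, 14.33 and 14.44 on day 7, 14.48, 14.42, 14.57 and 14.34 on day 14, and 14.37, 14.29, 14.39 and 14.47 on day 56. Day 3 lay below and days 7, 14 and 56 above all sham rats, with a day 3 change of −0.55 (SE 0.10, adjusted p = 0.000241) and later ones of 0.45, 0.51 and 0.44. The second probe set of Lamp2 disagreed: it was higher than sham on all 5 days, by 0.88, 0.45, 0.98, 0.92 and 0.93 (SE 0.08), with an adjusted p of 0.000242 on day 3. With the mean of both probe sets the day 3 difference was −0.05 (adjusted p = 0.599), so the direction of Lamp2 on day 3 depends on the probe set. Both probe sets had their lowest injured mean on day 3.

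**Figure D4:**
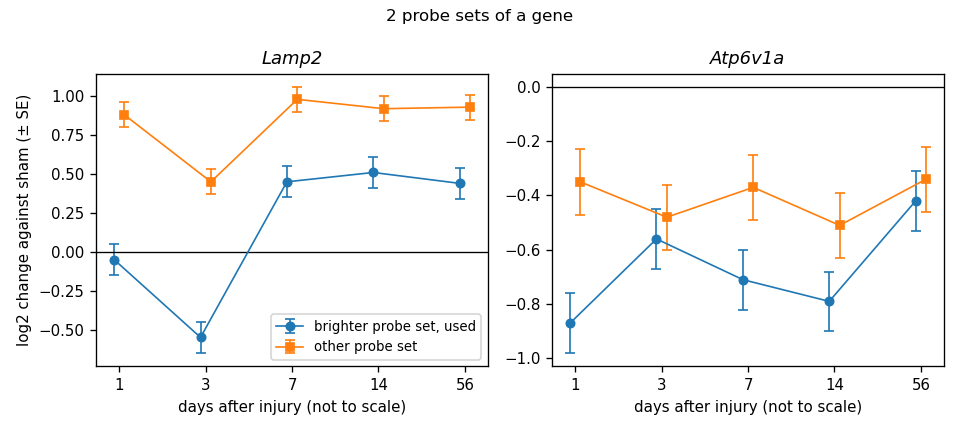
Log2 change against sham (± SE) of both probe sets of Lamp2 and of Atp6v1a on the 5 days, the brighter one in blue. The Lamp2 probe sets lie on opposite sides of 0 on day 3 (−0.55 and 0.45), and both Atp6v1a probe sets lie below 0 on all days.

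The proton pump is built from a membrane sector, which carries protons, and a peripheral sector, which hydrolyses ATP. Of its 5 genes here, 1, 0, 3, 0 and 1 were higher on days 1, 3, 7, 14 and 56, 1 was lower on each day, and no change reached 1. Among all genes the shares on these days were 28.9%, 23.7%, 23.5%, 15.8% and 16.1% higher and 20.4%, 16.7%, 30.0%, 16.3% and 15.9% lower, and 4 of the 5 pump genes passed in either direction on day 7. Atp6v1a, the catalytic A subunit, was measured at 13, 12.89, 12.71 and 12.91 in sham rats, 11.90, 11.98, 11.98 and 12.14 on day 1, and 12.38, 12.53, 12.15 and 12.19 on day 3. It continued at 12.14, 12.55, 12.05 and 11.90 on day 7, 12.18, 11.98, 12.17 and 12.01 on day 14, and 12.28, 12.60, 12.53 and 12.43 on day 56. All 20 injured rats lay below all sham rats. The changes were −0.87, −0.56, −0.71, −0.79 and −0.42 on days 1, 3, 7, 14 and 56 (SE 0.11), with no adjusted p above 0.00841, and the second probe set was lower on all 5 days too, by −0.34 to −0.51. Its rise from day 1 to day 3 (0.31, adjusted p = 0.044) is lost in several alternatives, among them the mean of both probe sets (0.09, adjusted p = 0.509).

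Atp6v0c, the proteolipid that forms the proton-carrying ring, read 12.90, 13, 13.26 and 12.97 in sham rats, 14.10, 13.66, 13.54 and 13.79 on day 1, and 13.25, 13.26, 13.25 and 13.21 on day 3, then 13.52, 13.78, 13.19 and 13.29 on day 7, 13.22, 13.02, 13.20 and 13.07 on day 14, and 13.14, 13.47, 13.21 and 13.34 on day 56. Day 1 rats lay above all sham rats. The day 1 rise was 0.74 (SE 0.12, adjusted p = 4e-05) and that of day 7 was 0.41 (adjusted p = 0.0107, and 0.0601 with only these groups fitted), and its other differences, 0.21, 0.09 and 0.26, missed the threshold. Atp6ap1, an accessory protein of pump assembly, was at 12.17, 12.46, 12.55 and 12.47 in sham rats, 12.61, 12.45, 12.49 and 12.54 on day 1, and 12.29, 12.19, 12.29 and 12.17 on day 3, and at 12.90, 12.88, 12.51 and 12.65 on day 7, 12.54, 12.46, 12.63 and 12.74 on day 14, and 12.59, 12.74, 12.78 and 12.91 on day 56. Only the day 56 rats lay clear above the sham rats. It rose by 0.33 and 0.34 on days 7 and 56 (SE 0.09, adjusted p = 0.00818 and 0.0072), and the day 7 call is lost with only these 2 groups fitted (adjusted p = 0.0656). Atp6v1b2, the B subunit found in brain and most tissues, read 11.45, 11.63, 12.16 and 11.56 in sham rats, 11.93, 11.83, 11.95 and 12.41 on day 1, and 11.79, 11.85, 11.74 and 11.46 on day 3. Later groups were at 11.80, 12.27, 11.59 and 11.41 on day 7, 11.78, 11.28, 12.09 and 11.55 on day 14, and 11.37, 12.11, 12.04 and 11.64 on day 56. All groups overlapped sham, with changes between −0.03 and 0.33 (SE 0.21). Atp6v0d1, a subunit that couples both sectors, rose on day 7 by 0.28 (adjusted p = 0.0303), a call lost without sham replicate 1 (0.26, adjusted p = 0.0745), sham replicate 4 (0.26, 0.0545) or day 7 replicate 2 (0.18, 0.116).

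Other genes of the system, listed with earlier results of these data known, covered further lysosomal proteins, further pump subunits, sorting and regulation. Of 27 other lysosomal enzymes and membrane proteins, 18, 5, 17, 14 and 14 were higher and 4, 7, 3, 3 and 3 lower on days 1, 3, 7, 14 and 56. The shares of all genes on these days were 28.9%, 23.7%, 23.5%, 15.8% and 16.1% higher. They were 20.4%, 16.7%, 30.0%, 16.3% and 15.9% lower. The 5 of 27 higher on day 3 and the lower counts of days 1, 7, 14 and 56 lie near or under these shares. Cd68, the macrophage lysosomal sialomucin, changed by 9, 4.54, 8.76, 8.26 and 8.75 from a sham mean near the control level, and the peptide transporter Slc15a3, the nuclease Dnase2 and the phospholipase Pla2g15 changed by 5.98, 4.92 and 2.86 on day 1 and by 2.32, 1.62 and 0.44 on day 3, where Pla2g15 missed the threshold. Of 14 other pump subunits, 6, 3, 5, 3 and 3 were higher and 3, 1, 3, 7 and 6 lower, counts of which several lie near the shares over all genes, such as 3 of 14 higher on day 3 (23.7% of all genes) and 3 of 14 lower on day 1 (20.4%). Tcirg1, the membrane-sector a3 isoform of osteoclasts and macrophages, changed by 3.35, 0.73, 2.47, 2.11 and 2.10 (not called on day 3). Atp6v1g2, the G isoform of neurons, changed by −4.04, −0.76, −2.40, −2.81 and −2.18 (not called on day 3). The small e subunits differed in sign, with Atp6v0e1 at 1.95 and Atp6v0e2 at −1.24 on day 1.

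Of the 11 genes that sort enzymes to lysosomes, 7, 0, 6, 4 and 4 were higher and 1, 1, 0, 0 and 0 lower. The lower counts, and the 0 higher on day 3, lie under the shares over all genes given above. The mannose 6-phosphate receptor Igf2r changed by 2.29, 0.52, 1.61, 1.2 and 1.47, and Gnptab, which builds the mannose 6-phosphate tag, by 1.52, 0.32, 1.12, 0.85 and 0.80, both without a call on day 3. Of the 22 regulators and autophagy genes, 7, 7, 8, 6 and 7 were higher and 3, 6, 3, 3 and 4 lower, and here too 7 of 22 higher on day 1 lies near the share over all genes (28.9%). Tfec, the TFEB relative of myeloid cells, changed by 4.94, 2.97, 4.68, 3.4 and 3.89, each called. Tfe3 was also higher on all 5 days, by 0.42 to 0.63. Tfeb passed on days 1 and 14 (0.28 and 0.32) and Mitf on days 1 and 3 (0.34 and 0.73). Rragd, a GTPase that helps to bring mTOR to lysosomes, was lower on day 3 (−2.01, adjusted p = 3.44e-05) and higher on day 56 (1.99, adjusted p = 6.55e-05), with −0.54, 0.46 and 0.51 on days 1, 7 and 14 (not called). Gabarapl1 and Ulk1, both of autophagy, were lower on all 5 days, by −0.75 to −2.07 and by −0.84 to −1.38.

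Cell type markers changed as well, in courses that differed between cell types. The mean of 11 macrophage and microglia markers per array ran from 6.77 to 7.98 in sham, 9.95 to 10.34 on day 1, 8.07 to 8.51 on day 3, 9.45 to 10.49 on day 7, 9.44 to 9.78 on day 14 and 9.32 to 9.54 on day 56. Of the 11, 8, 5, 9, 9 and 7 were higher on the 5 days, and 1 was lower on day 1 and 3 on day 3. The shares of all genes that were higher were 28.9%, 23.7%, 23.5%, 15.8% and 16.1%. Those lower were 20.4% on day 1 and 16.7% on day 3. On day 3 the markers divided: Itgam, Cd14, Mrc1, Ptprc and Tyrobp were higher than sham, whereas Csf1r, P2ry12 and Tmem119 were lower, and Cd14 stayed at 8.00 after 8.32 on day 1. The mean of the 35 lysosomal genes ran from 9.44 to 9.95 in sham, 11.02 to 11.37 on day 1, 9.63 to 9.82 on day 3, 10.77 to 11.68 on day 7, 10.84 to 11.39 on day 14 and 11.07 to 11.21 on day 56. Both lists had lower array means on day 3 than on days 1 and 7. The macrophage and microglia mean on day 3 depends on Cd14, whose sham mean was 3.18. Without it, a choice made after the values were seen, the 10 remaining markers ran from 7.21 to 8.38 in sham and 7.77 to 8.19 on day 3. That mean joins markers of opposite direction, such as Mrc1 (8.33 on day 3, 4.52 in sham) and P2ry12 (7.85 on day 3, 10.53 in sham). The median change of the 11 markers on day 3 was 0.18.

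Fibroblast markers also dipped on day 3, with array means of 4.78 to 7.99 against 8.04 to 8.88 in sham, 9.52 to 11.33 on day 1 and 10.06 to 12.05 on day 7, with 4 of 6 lower than sham on day 3. Neuron markers ran the other way, with 10, 2, 10, 10 and 8 of 10 lower than sham and array means of 11.38 to 11.86 in sham, 6.44 to 8.48 on day 1 and 10.36 to 10.94 on day 3. Of 6 neutrophil markers, 3 were higher on days 1 and 3 (S100a8, S100a9 and Csf3r). S100a8 and S100a9 had their highest means on day 3 (10.69 and 12.65), Csf3r on day 1 (8.79, and 7.11 on day 3) and Mmp8 on day 7 (4.86, and 2.67 on day 3), while Camp and Cxcr2 stayed under 2.91, the upper end of the control level, in every group mean. Astrocyte markers were lower in 6 of 7 on day 1 and 4 on day 3, oligodendrocyte markers in 7 and 3 of 7, and of 5 endothelial markers 2 were higher on each of these days and 1, Flt1, lower on day 1 (−0.95). The shares of all genes that were lower were 20.4%, 16.7%, 30.0%, 16.3% and 15.9% on the 5 days. Those higher were 28.9% and 23.7% on days 1 and 3. The 2 of 10 neuron markers lower on day 3 and the 1 of 5 endothelial markers lower on day 1 lie near these shares. The part of these cell types in the changes of the lysosomal genes was not tested.

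**Figure D5:**
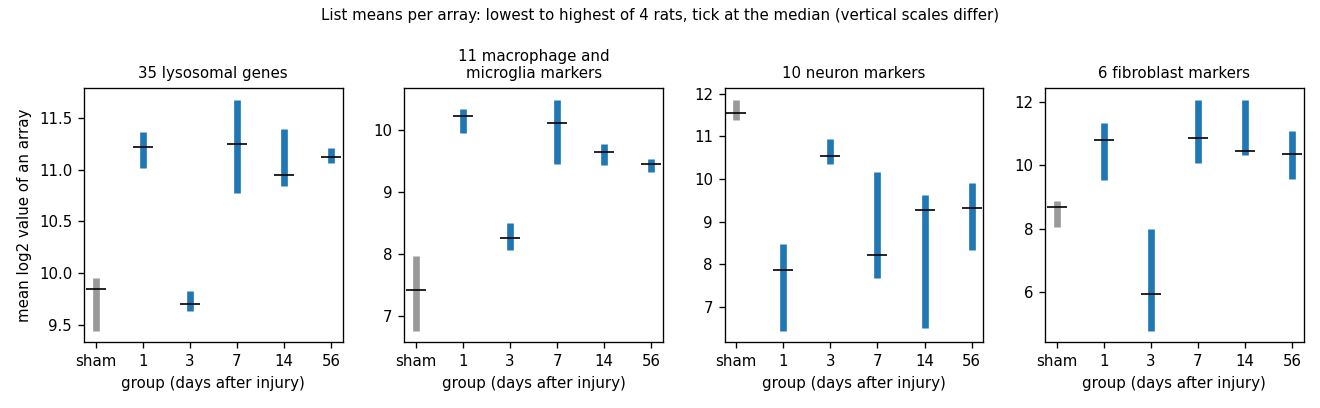
Mean log2 value per array of the 35 lysosomal genes and of the macrophage and microglia, neuron and fibroblast markers, as the lowest to highest of 4 rats in each group with a tick at the median. The lysosomal and macrophage lists are high on days 1, 7, 14 and 56 and lower on day 3, where the lysosomal genes span 9.63 to 9.82 and sham 9.44 to 9.95, while neuron markers run the opposite way.

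Within a group the lysosomal genes varied together from rat to rat. On day 7, replicate 2 had the highest value of its group in 30 of the 35 genes and replicate 3 the lowest in 31. On day 14, replicate 3 was the highest in 28, and in sham, replicate 1 was the lowest in 24. On day 1, replicate 3 was the lowest in 21 (fibroblast mean 9.52 against 10.80 to 11.33), and on day 56, replicate 4 was the highest in 19 and replicate 1 the lowest in 18. In the same rats the markers differed as well: on day 7 the macrophage and microglia mean was 10.49 in replicate 2 and 9.45 in replicate 3, and the neuron mean 7.67 and 10.15. On day 14, replicate 3 had a neuron mean of 6.50 against 9.04 to 9.62 in the other rats and a fibroblast mean of 12.07 against 10.31 to 10.49, and sham replicate 1 had the lowest macrophage mean of its group, 6.77. No such rat stood out on day 3, when replicates 2 and 3 were each highest in 14 genes and replicates 1 and 4 each lowest in 13. With day 7 replicates 2 and 3 and day 14 replicate 3 left out, 5 genes were higher than sham on day 3 in place of 3, and none fell from day 7 to day 14 in place of 2.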

How the data were processed

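Total RNA of 24 rat spinal cords was hybridised to Affymetrix arrays, with 4 rats in each of 6 groups. The authors summarised the scans with affy 1.12.2 and GCRMA, each time point separately per the methods, and the deposited values are log2 expression values per probe set, used here without further normalization. The starting RNA was 5 µg per the paper and 0.5 µg per the labels. Of 31099 probe sets, 20832 carry 1 gene symbol, and a gene was represented by the one with the highest mean (14218 genes; 12 of the 35 members have several). All probe sets were fitted with limma 3.58.1 in R 4.3.3 (6 groups, eBayes, 18 residual degrees of freedom and 1.08 prior), and adjusted p-values (Benjamini-Hochberg, all 20832 such probe sets per comparison) were called at 0.05. Precision is limited by the number of arrays, and intervals are at 95%. The fit was tested on simulated data.

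The members and all gene lists were chosen with earlier results of these data known. Values in each rat are given for the 3 members of each role group with the largest mean change, for members called in both directions and for members called on no day; other members, among them Ppt1, were named for their counts. Of other lists up to 4 genes with the largest mean change and the 4 TFEB relatives were named. Alternatives were 2 groups only, trend and robust or no moderation, quantile normalization, median centring, no dim probe sets (at least 5 in some group's mean), a replicate block, the mean of probe sets, stricter thresholds, 3 arrays left out and each array left out; a marker mean without Cd14 was added after seeing the data. Deviations from the group mean correlated at −0.657 to 0.452 between samples with the same replicate number (60 pairs, 12 over 0.1). Samples with different numbers were not compared, so this check cannot decide whether numbers pair rats. Figures were drawn with matplotlib 3.10.9.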

Additional observations from a re-analysis of the deposited data

Results flagged for a closer look

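Among 210 sets of 4 rats (35 genes in 6 groups), 11 held a rat far from the other 3, where chance alone flags about 1 in 20, or 10.5. Gaa read 10.19 in day 1 replicate 1 (9.64 to 9.72 in the others) and 10.64 in day 56 replicate 3 (10.29 to 10.31). Neu1 read 6.01 in sham replicate 1 (6.70 to 6.80) and 7.18 in day 7 replicate 2 (6.73 to 6.74). Naglu read 6.01 in day 3 replicate 1 (7.51 to 7.64), Idua 7.90 in day 56 replicate 2 (8.53 to 8.65), and Arsb 12.02 in day 14 replicate 3 (11.51 to 11.59). Plbd1 read 2.38 in sham replicate 4 (1.86 to 1.89), below the level of control probe sets. Psap read 11.94 in day 3 replicate 4 (12.86 to 12.90), Tpp1 12.18 in day 1 replicate 1 (12.36 to 12.39), and Ctsa 10.72 in sham replicate 1 (11.07 to 11.12).

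Levels differed between injured groups in the direct tests, in which the day and its pre-processing run cannot be told apart. By limma's adjusted p, 28 of the 35 genes were lower and 1 higher on day 3 than on day 1. In that step 18.3% of all genes were lower and 17.1% higher. On day 7, 26 were higher than on day 3, beside 12.8% of all genes. On day 14, 2 of the 35 were lower than on day 7, which lies near the 6.18% of all genes.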

How the results depend on the processing

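Of 315 results (35 genes in 9 comparisons), 173 passed the threshold and none reversed direction under any alternative run. These runs did not include a gene's other probe set alone, with which Lamp2 was higher on day 3 (0.45) and not lower (−0.55). In all, 108 of the 173 kept their call under every alternative, 17 were lost in an alternative fit, 6 of them under another scaling, and 12 were lost without 1 array. The counts of genes that passed moved by over 1.5 times as follows. A change of at least 1 left 15, 1 and 14 higher on days 1, 3 and 14, 0, 2, 0, 0 and 0 lower on days 1, 3, 7, 14 and 56, 0 higher and 18 lower on day 3 than day 1, and 0 lower on day 14 than day 7. With an adjusted p under 0.01, 1 was higher on day 3, 1 lower on day 56, 0 higher on day 3 than day 1 and 0 lower on day 14 than day 7. Quantile normalization gave 2 lower on day 1, and 0 for both of these steps. Leaving out dim probe sets gave 2 lower genes for day 1 and 0 for the step from day 7 to day 14. The mean of probe sets gave 2 lower on day 1 and 0 higher on day 3 than day 1. Without the 3 arrays 5 were higher on day 3 and 0 lower on day 14 than day 7. Fits of 2 groups only gave 1 lower on day 56, 0 higher on day 3 than day 1 and 1 lower on day 14 than day 7, and trend and robust moderation also gave 1 there. With a replicate block 1 was lower on day 14 than day 7 (Atp6v0d1 lost, adjusted p = 0.051), and the block changed no other call. With single arrays left out, 1 to 2 genes were lower on day 1, 1 to 5 higher on day 3 (1 without sham replicate 1, 5 without day 7 replicate 3), 0 to 1 higher on day 3 than day 1, 0 to 1 lower on day 7 than day 3, and 1 to 6 lower on day 14 than day 7. Why the other counts moved was not tested; stricter thresholds lower them by construction. Changes of genes whose sham values lie near the control probe sets, Plbd1 and Acp5, have no exact size.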
